A study of Drosophila melanogaster with 8 samples.

Results

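Transcript levels of 10 eye pigment genes of *Drosophila melanogaster* were measured in fly heads: *w*, *st*, *bw*, *v*, *cn*, *cd*, *se*, *ry*, *Hn* and *pr*. They are listed by name, as genes that encode enzymes or transporters of eye pigment synthesis. All 10 were among the 17490 genes of the count table, and all 10 passed the filter on low counts that left 13536 genes to test. The study deleted the odorant-binding protein gene *Obp56h* and compared *Obp56h*-/- females and males (labeled Obp56h_KO) with females and males of *CSB*, the Canton S-B control line that also gave the deletion its background. Each of the 4 groups had 2 replicates, each a pool of heads from 50 flies that were 3 to 5 days old.

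The *Obp56h*-/- flies are 1 deletion line, so that anything else that separates this line from *CSB* cannot be told apart from the loss of *Obp56h*. The deleted gene was replaced by a *DsRed* cassette under the *3XP3* promoter, which is active in the eye. The cassette carries *loxP* sites for its removal, and whether it was still present in the sequenced flies is not given in the sources used here.

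The red-brown color of the wild-type fly eye comes from a pair of pigment classes that are stored in granules of the retinal pigment cells. Brown ommochromes are made from tryptophan through kynurenine, and red pteridines (drosopterins) are made from guanosine triphosphate through intermediates that are shared with the cofactor tetrahydrobiopterin. The precursors are carried across membranes by ABC transporters in which White pairs with Scarlet (ommochrome precursors) or with Brown (pteridine precursors). Most pigment is laid down in the pupa and the young adult, and several of these genes are also known for their activity in other tissues, such as the Malpighian tubules and the fat body.

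The 10 genes lie on all of the large chromosome arms. In the BDGP6 assembly with Ensembl's annotation, the transporter genes are *w* (X, 2790599 to 2796466, minus strand), *st* (3L, 16497651 to 16500460, plus strand) and *bw* (2R, 23527805 to 23538499, minus strand). The ommochrome genes are *v* (X, 10923972 to 10925631, plus strand), *cn* (2R, 7782797 to 7785067, minus strand) and *cd* (3R, 22694959 to 22697990, plus strand). The pteridine genes are *pr* (2L, 20073719 to 20075458, minus strand), *se* (3L, 8520552 to 8521489, plus strand), *ry* (3R, 13032528 to 13038020, plus strand) and *Hn* (3L, 7760453 to 7763166, plus strand). For all 10, the gene length deposited with the counts equalled the summed exon length in this annotation, and counts refer to whole genes, exons of all transcripts together. Exons of another gene on the opposite strand overlap 456 bp of *bw* (*mi*), 1229 bp of *cn* (*asRNA:CR45108*), 61 bp of *se* (*GstO2*) and 1 bp of *pr* (*bwa*). Whether the counting used strand is not given in the sources used here, so reads in those stretches are uncertain.

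Between 10127941 and 25918919 reads were counted in a library. Levels are given as CPM, the usual unit for a gene's share of the reads counted in its library, after scaling between libraries by the trimmed mean of M values (TMM), and 3 reads, taken as the floor of detection, correspond to between 0.122 and 0.276 CPM. *Obp56h* itself had 0 or 1 read in the 4 *Obp56h*-/- libraries, against 54 to 110 reads in the 4 *CSB* libraries. The summed level of 13 photoreceptor genes was 41100 to 42300 CPM in *Obp56h*-/- females, against 38700 to 41200 CPM in *CSB* females, and 39600 to 41100 CPM in *Obp56h*-/- males, against 38700 to 40400 CPM in *CSB* males. The ranges overlapped in both sexes. Both *CSB* replicate 1 libraries stood apart from the other 6, at 61.2 (females) and 40.8 (males) on a first principal component of 45.8% of the variance, where the others were between -25.2 and -4.77. Nothing states that the 2 pools of a group came from separate cultures, so the tests measure the spread between these pools only.

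The question asked of each gene was whether its level in heads differed between *Obp56h*-/- and *CSB*. Differences are log2 fold changes of *Obp56h*-/- over *CSB* from edgeR's quasi-likelihood test over all 4 groups, with Benjamini-Hochberg adjustment over the 13536 genes, and a gene was called at an adjusted p under 0.05. In females 1 of the 10 genes was called (*se*, higher), where 1.03% of all genes tested were called, and 2 of the 10 had an unadjusted p under 0.05, as did 10.7% of all genes. In males 0 of 10 were called by edgeR, where 0.502% of all genes were, and 3 of the 10 had an unadjusted p under 0.05, as did 9.15% of all genes. Averaged over the sexes 1 of 10 was called (*se* again), where 1.93% of all genes were, and 3 of the 10 had an unadjusted p under 0.05, as did 18.6% of all genes. Without *cn*, which had few reads, the median log2 fold change of the other 9 genes was -0.13 in females and -0.10 in males, beside -0.03 and -0.05 for all genes tested. Since RNA came from whole heads, fewer cells of a type and less RNA per cell cannot be told apart in any of these values.

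The 10 genes differed widely in level. Per kb of gene length, *pr* averaged 122 CPM per kb over the 8 libraries (97.8 to 155), *Hn* 93.5 (79.7 to 110) and *se* 62.9 (47.9 to 81.0). These 3 pteridine genes stood above 96.4%, 95.2% and 92.6% of the genes tested. They were followed by *bw* at 12.6 CPM per kb (10.5 to 17.7), *v* at 12 (10 to 14.6), *st* at 7.38 (6.12 to 8.93), *ry* at 6.93 (4.84 to 9.05) and *cd* at 2.10 (1.42 to 2.73). The lowest were *w*, at 0.315 CPM per kb (0.119 to 0.509), and *cn*, at 0.112 (0 to 0.360), which stood above only 8% and 0.3% of the genes tested. In this order, neighbors whose ranges over the 8 libraries overlapped were *pr* and *Hn*, *Hn* and *se*, *bw* and *v*, *st* and *ry*, and *w* and *cn*. The other neighbors had ranges that did not overlap.

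**Figure D1:**
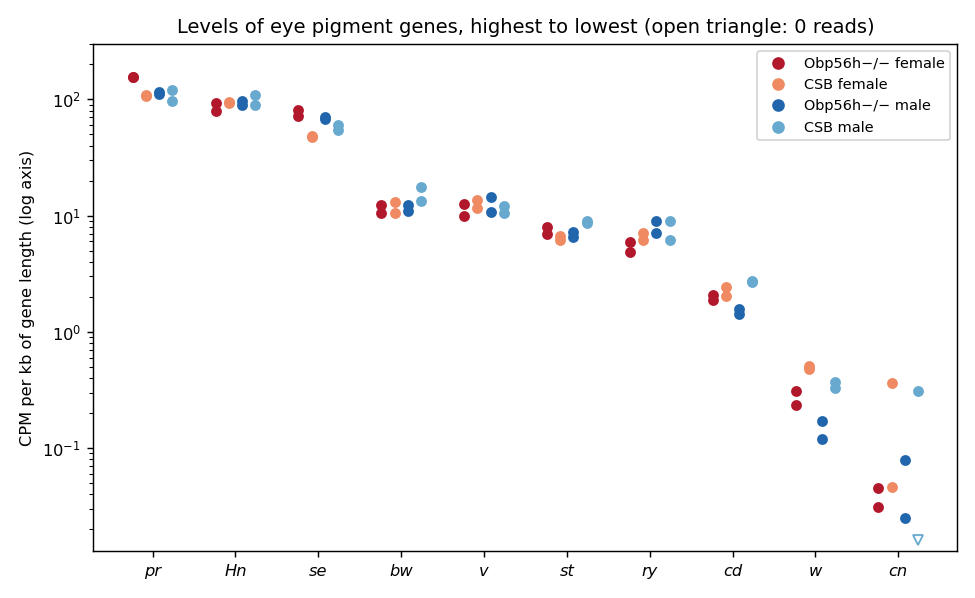
Level of each of the 10 eye pigment genes in CPM per kb of gene length on a log axis, with 1 point for each of the 8 libraries. The pteridine genes *pr*, *Hn* and *se* lie between 47.9 and 155 CPM per kb in every library, and *w* and *cn* are the lowest, at no more than 0.509. The open triangle marks the library with 0 reads on *cn*.

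The gene *w* encodes the White subunit shared by both transporters. It was covered by few reads, 18 and 10 in *Obp56h*-/- females against 13 and 27 in *CSB* females, and 6 and 9 in *Obp56h*-/- males against 14 and 18 in *CSB* males. In CPM these were 0.735 and 0.554 in *Obp56h*-/- females, against 1.20 and 1.12 in *CSB* females, and 0.280 and 0.402 in *Obp56h*-/- males, against 0.769 and 0.875 in *CSB* males. Both *Obp56h*-/- libraries lay below both *CSB* libraries in each sex, and *w* was the only one of the 10 genes with this order in both sexes, an order found in 1279 of the 13536 genes tested. The log2 fold change was -0.83 in females (SE 0.88, 95% interval -2.67 to 1.01, adjusted p = 0.751) and -1.25 in males (SE 0.91, -3.16 to 0.65, adjusted p = 0.708) by edgeR's quasi-likelihood test. Neither difference passed the test.

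The Scarlet subunit, which pairs with White to carry ommochrome precursors, is encoded by *st*. It had 17.1 and 14.8 CPM in *Obp56h*-/- females, against 14.4 and 13.1 CPM in *CSB* females. In males it had 14.0 and 15.5 CPM in *Obp56h*-/-, against 18.6 and 19.2 CPM in *CSB*. The groups did not overlap in either sex, and their order was opposite: the *Obp56h*-/- libraries were the higher in females and the lower in males. In the fit, the log2 fold change was 0.22 in females (SE 0.17, adjusted p = 0.652) and -0.36 in males (SE 0.17, adjusted p = 0.540). The effect in males minus that in females was -0.57 on the log2 scale (SE 0.24, 95% interval -1.08 to -0.07, unadjusted p = 0.0280, adjusted p = 1 by edgeR's quasi-likelihood test), so no sex difference of the effect passed the test.

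The Brown subunit, which pairs with White to carry pteridine precursors, is encoded by *bw*. In females its levels were 34.1 and 29.1 CPM in *Obp56h*-/- and 28.8 and 36.0 CPM in *CSB*. In males they were 29.8 and 33.9 CPM in *Obp56h*-/- and 36.7 and 48.5 CPM in *CSB*. The groups overlapped in females and did not in males, where the 2 *CSB* libraries were also far apart. Its log2 fold change was -0.04 in females (SE 0.17, 95% interval -0.41 to 0.32) and -0.42 in males (SE 0.17, -0.78 to -0.06, unadjusted p = 0.0253, adjusted p = 0.485 by edgeR's quasi-likelihood test). Of the 3 transporter genes, 0 were called in either sex by this test (1.03% of all genes were in females and 0.502% in males). An unadjusted p under 0.05 was found for 0 in females and 2 in males, as it was for 10.7% and 9.15% of all genes.

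**Figure D2:**
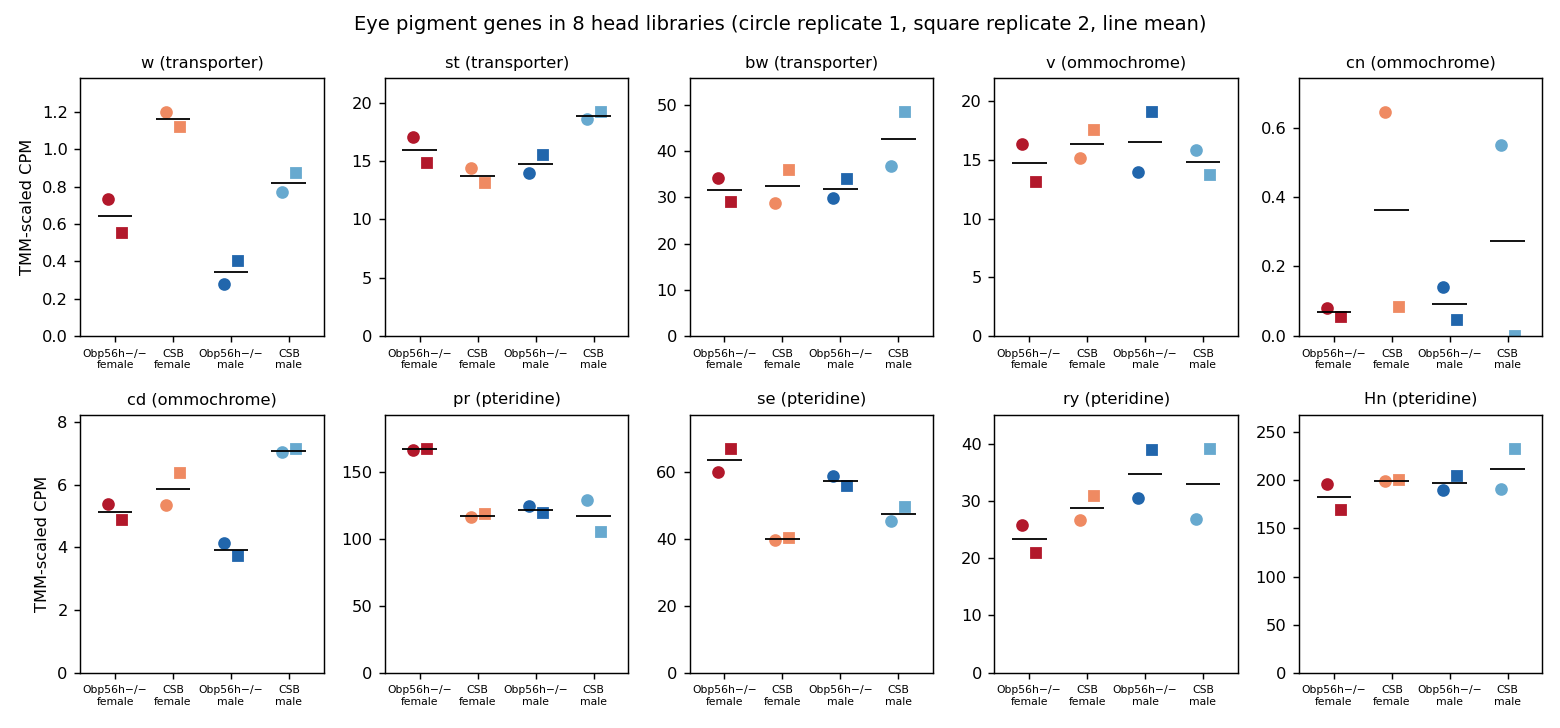
CPM of each of the 10 genes in each library, a panel per gene, with *Obp56h*-/- left of *CSB* within each sex and a bar at each group mean. The *se* panel has every *Obp56h*-/- library (55.7 to 66.8 CPM) above every *CSB* library (39.5 to 49.4 CPM), and the *pr* panel has *Obp56h*-/- females alone at 166 and 167 CPM.

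Of the ommochrome enzymes, *v* encodes tryptophan oxygenase, which takes the first step of the pathway. It had 16.4 and 13.1 CPM in *Obp56h*-/- females, against 15.2 and 17.6 CPM in *CSB* females, and 14.0 and 19.1 CPM in *Obp56h*-/- males, against 15.9 and 13.7 CPM in *CSB* males. The groups overlapped in both sexes. Fitted log2 fold changes were -0.16 in females (SE 0.20, 95% interval -0.57 to 0.25) and 0.16 in males (SE 0.19, -0.25 to 0.57), with adjusted p-values of 0.794 and 0.843 in edgeR's quasi-likelihood test.

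Kynurenine monooxygenase, the enzyme that makes the hydroxykynurenine from which the brown pigment forms, is encoded by *cn*. Its counts were 2 and 1 in *Obp56h*-/- females, against 7 and 2 in *CSB* females, and 3 and 1 in *Obp56h*-/- males, against 10 and 0 in *CSB* males. Only the *CSB* replicate 1 libraries exceeded 3 reads, and *cn* passed the filter on low counts through those libraries alone, so no fold is given. The adjusted p was 0.711 in females and 0.858 in males by edgeR's quasi-likelihood test. In the same *CSB* replicate 1 libraries *CapaR*, a marker of the Malpighian tubules, had 2.58 (females) and 3.79 CPM (males), against 0.420 to 0.831 CPM in the other 6 libraries. Of the same marker list, *Uro* had 3 and 11 reads against 0 to 4, and *Irk3* had 18.6 and 17.1 CPM against 13.4 to 17.4 CPM. Markers of other tissues were also high in these libraries: *LManVI* of the midgut (6.63 and 1.87 CPM against 0.179 to 0.827 CPM) and *dec-1* of the eggshell (5.25 and 1.87 CPM against 0.111 to 0.583 CPM). The part of these tissues in the *cn* counts was not tested.

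The heme peroxidase encoded by *cd* acts in the last step, the formation of the brown pigment xanthommatin. It had 4.15 and 3.71 CPM in *Obp56h*-/- males, against 7.03 and 7.15 CPM in *CSB* males, and 5.39 and 4.87 CPM in *Obp56h*-/- females, against 5.34 and 6.37 CPM in *CSB* females. In males the groups lay far apart, with a mean of 3.93 ± 0.313 CPM in *Obp56h*-/- and 7.09 ± 0.0808 CPM in *CSB* (SD, n = 2 each), and in females they overlapped. In males the log2 fold change was -0.85 (SE 0.23, 95% interval -1.34 to -0.36, unadjusted p = 0.00192), a 0.554-fold level, which did not pass adjustment over all genes (adjusted p = 0.186, edgeR's quasi-likelihood test). In females it was -0.20 (SE 0.23, adjusted p = 0.781), and the effect in males minus that in females was -0.65 (SE 0.33, adjusted p = 1). None of 18 alternative fits of the male comparison called *cd*, with log2 fold changes of -0.94 to -0.77 and adjusted p-values of 0.0952 to 0.934. With *kar*, a gene whose mutants also have less brown pigment, the ommochrome list held 4 tested genes. Of these, 0 were called in either sex by edgeR (1.03% of all genes were in females and 0.502% in males). An unadjusted p under 0.05 was found for 0 in females and 1 in males (*cd*), as it was for 10.7% and 9.15% of all genes.

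Among the pteridine enzymes, *se* encodes pyrimidodiazepine synthase, a glutathione S-transferase of the omega class that makes a direct precursor of the red drosopterins. It had 59.9 and 66.8 CPM in *Obp56h*-/- females, against 39.5 and 40.3 CPM in *CSB* females. In males it had 58.7 and 55.7 CPM in *Obp56h*-/-, against 45.1 and 49.4 CPM in *CSB*. All 4 *Obp56h*-/- libraries thus lay above all 4 *CSB* libraries, and *se* was the only one of the 10 genes whose *Obp56h*-/- groups were the higher without overlap in both sexes, an order found in 976 of the genes tested.

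In females *se* averaged 63.4 ± 4.84 CPM in *Obp56h*-/- and 39.9 ± 0.561 CPM in *CSB* (SD, n = 2 each), and it rose 1.59-fold (log2 fold change 0.67, SE 0.14, 95% interval 0.36 to 0.97, adjusted p = 0.0279, edgeR's quasi-likelihood test). In males the means were 57.2 ± 2.16 CPM in *Obp56h*-/- and 47.3 ± 3.03 CPM in *CSB* (SD, n = 2 each), and the log2 fold change of 0.28 did not pass (SE 0.14, 95% interval -0.02 to 0.58, adjusted p = 0.579). The effect in males minus that in females was -0.39 (SE 0.20, unadjusted p = 0.0703, adjusted p = 1), so a difference between the sexes was not shown. Averaged over the sexes, *se* rose 1.39-fold (log2 fold change 0.47, SE 0.10, 95% interval 0.26 to 0.68, adjusted p = 0.0173).

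The log2 fold change of *se* in females stayed between 0.55 and 0.76 in 18 alternative fits, of which 13 called it. The call was lost when library size was the only scaling (adjusted p = 0.0748) and when any of the 4 female libraries was left out, which leaves 1 library in a group: *Obp56h*-/- replicate 1 (adjusted p = 0.0641) or replicate 2 (0.355), and *CSB* replicate 1 (0.177) or replicate 2 (0.0841). The averaged call was lost with library size alone (0.0508) and without *Obp56h*-/- female replicate 2 (0.105), *Obp56h*-/- male replicate 1 (0.0884) or 2 (0.0530), or *CSB* female replicate 1 (0.0513), and held without both *CSB* replicate 1 libraries. These adjusted p-values are from edgeR's quasi-likelihood test, and the 18 fits include likelihood ratio tests and DESeq2.

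The *se* gene lies in a row of omega-class glutathione S-transferase genes, between *GstO3* upstream and *GstO2* and *GstO1* downstream. The exon of *GstO2* that overlaps *se* by 61 bp is on the opposite strand. In females *GstO2* had 51.1 and 54.4 CPM in *Obp56h*-/-, against 50.4 and 51.5 CPM in *CSB*, and in males 43.7 and 50 CPM in *Obp56h*-/-, against 51.2 and 48.2 CPM in *CSB*. *GstO3* had 30.3 and 31.8 CPM in *Obp56h*-/- females, against 28.6 and 33.4 CPM in *CSB* females. The *Obp56h*-/- and *CSB* libraries of both neighbors overlapped in both sexes. Log2 fold changes in females were -0.01 (*GstO3*, SE 0.16), 0.05 (*GstO2*, SE 0.14) and 0.00 (*GstO1*, SE 0.29), and those in males -0.21, -0.08 and -0.25. Of these 3 family members, 0 were called in either sex by edgeR's quasi-likelihood test, and 0 had an unadjusted p under 0.05 (10.7% of all genes in females and 9.15% in males). Further upstream, *CG6765* was higher in *Obp56h*-/- without overlap in both sexes (log2 fold changes 0.32 in females and 0.20 in males). *ZC3H3* was lower without overlap in both (-0.17 and -0.30), and *Pus7* in females only (-0.59). By the same test these were not called in either sex. Among all genes tested, 976 were higher and 1279 lower without overlap in both sexes.

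An earlier pteridine step, the formation of pyruvoyl tetrahydropterin, is catalyzed by the product of *pr*, which leads to both drosopterins and tetrahydrobiopterin. It had 166 and 167 CPM in *Obp56h*-/- females, against 116 and 118 CPM in *CSB* females, and 124 and 119 CPM in *Obp56h*-/- males, against 129 and 105 CPM in *CSB* males. The *Obp56h*-/- females stood above all other 6 libraries, and the males of both genotypes overlapped. In females the log2 fold change was 0.51 (SE 0.14, 95% interval 0.21 to 0.81, unadjusted p = 0.00219), a 1.42-fold level that did not pass adjustment (adjusted p = 0.130, edgeR's quasi-likelihood test). In males it was 0.06 (SE 0.14, -0.24 to 0.35, adjusted p = 0.936), and the effect in males minus that in females was -0.45 (SE 0.20, unadjusted p = 0.0369, adjusted p = 1). In females 6 of 18 alternative fits called *pr*, among them a likelihood ratio test (adjusted p = 0.0493), DESeq2 (0.0189), a fit with no filter (0.0424), a fit of the females alone (0.0456) and the fits without *CSB* male replicate 1 (0.00673) or 2 (0.00898), all with log2 fold changes between 0.47 and 0.53.

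Xanthine dehydrogenase, which is encoded by *ry* and forms isoxanthopterin and uric acid, had 25.9 and 21.0 CPM in *Obp56h*-/- females, against 26.8 and 31.0 CPM in *CSB* females. In males it had 30.5 and 39.0 CPM in *Obp56h*-/-, against 26.9 and 39.2 CPM in *CSB*. The groups did not overlap in females, by a narrow margin, and overlapped in males. For *ry* the log2 fold change was -0.30 in females (SE 0.19, 95% interval -0.71 to 0.10) and 0.07 in males (SE 0.19, -0.33 to 0.47), with adjusted p-values of 0.585 and 0.938 in edgeR's quasi-likelihood test.

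Phenylalanine hydroxylase, an enzyme that uses tetrahydrobiopterin, is encoded by *Hn*. Its level was 196 and 169 CPM in *Obp56h*-/- females, against 199 and 200 CPM in *CSB* females, and 190 and 205 CPM in *Obp56h*-/- males, against 191 and 233 CPM in *CSB* males. The female groups did not overlap, although *Obp56h*-/- replicate 1 was close to both *CSB* libraries, and the male groups overlapped. Its log2 fold change was -0.13 in females (SE 0.15, 95% interval -0.43 to 0.18) and -0.10 in males (SE 0.14, -0.41 to 0.20), with adjusted p-values of 0.769 and 0.870 in edgeR's quasi-likelihood test.

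**Figure D3:**
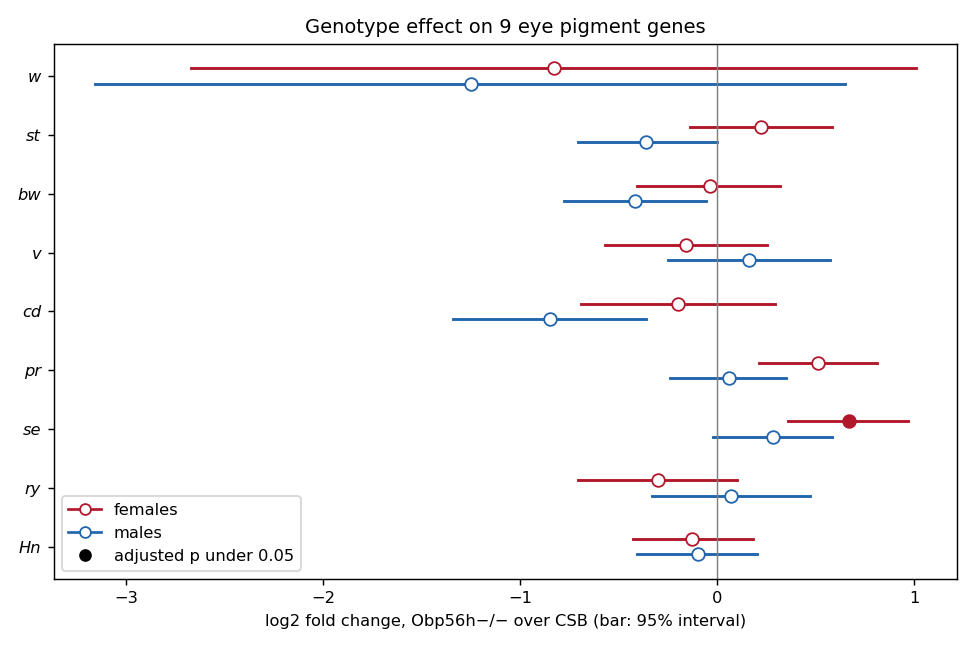
Log2 fold change of *Obp56h*-/- over *CSB* in females and in males for the eye pigment genes, with 95% intervals from edgeR's quasi-likelihood fit. The gene *cn*, with at most 3 reads in 6 of 8 libraries, is left out, and *se* in females (0.67, interval 0.36 to 0.97) is the value that was called.

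Over all 10 genes, the *Obp56h*-/- libraries lay above both *CSB* libraries without overlap for 3 genes in females (*st*, *se* and *pr*; 19.4% of all genes tested) and for 1 in males (*se*; 16.6%). They lay below without overlap for 3 genes in females (*w*, *ry* and *Hn*; 21.9% of all genes) and for 4 in males (*w*, *st*, *bw* and *cd*; 24.3%). The order of *cn* in females, whose counts were 2 and 1 in *Obp56h*-/- against 7 and 2 in *CSB*, is left out of this count because it rests on values below the floor of 3 reads. Of the 10 differences between the sexes in the effect of the deletion, 0 were called by edgeR, where 0.0369% of all genes were called, and 2 (*st* and *pr*) had an unadjusted p under 0.05, as did 3.05% of all genes. The male and female comparisons share no libraries, but both *CSB* replicate 1 libraries, which stood apart together, enter 1 comparison each.

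The same libraries allowed males to be compared with females within each genotype. Of the 10 genes, 0 were called by edgeR within *Obp56h*-/- (3.19% of all genes were), 0 within *CSB* (2.9% of all genes) and 0 in the average over genotypes (6.74% of all genes), and 2 had an unadjusted p under 0.05 in each of the 3 comparisons, as did 11.5%, 10.3% and 16.4% of all genes. A male library stood apart on a sex marker: the summed level of 3 yolk protein genes, which females express highly, was 1450 CPM in *CSB* male replicate 1, against 54 CPM in *CSB* male replicate 2 and 53.2 to 78.5 CPM in *Obp56h*-/- males. Of the 10 genes, the 2 with an unadjusted p under 0.05 in *Obp56h*-/- were *ry*, with 30.5 and 39.0 CPM in males against 25.9 and 21.0 CPM in females (log2 fold change of males over females 0.57, SE 0.19, adjusted p = 0.161), and *pr*, with 124 and 119 CPM in males against 166 and 167 CPM in females (-0.45, SE 0.14, adjusted p = 0.111). In *CSB* they were *st*, with 18.6 and 19.2 CPM in males against 14.4 and 13.1 CPM in females (0.46, SE 0.17, adjusted p = 0.236), and *bw*, with 36.7 and 48.5 CPM in males against 28.8 and 36.0 CPM in females (0.39, SE 0.17, adjusted p = 0.425). The averaged comparison gave *ry* (0.38, SE 0.14, adjusted p = 0.127) and *pr* (-0.23, SE 0.10, adjusted p = 0.249). For the X-linked genes, *w* and *v*, the averaged log2 fold changes were -0.70 (SE 0.63) and 0.00 (SE 0.14). These adjusted p-values are from edgeR's quasi-likelihood test. In *Obp56h*-/- both *ry* and *pr* were called when either *CSB* male library was left out (*ry* adjusted p = 0.00390 and 0.00414, *pr* 0.0112 and 0.0175), although neither library enters that comparison other than through the filter, the scaling and the shared estimate of the spread. In the averaged comparison both were called without *CSB* male replicate 1 (*ry* 0.00113, *pr* 0.0179).

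With *w* and *cn* left out, the pair with the highest correlation across the 8 libraries was *ry* and *Hn* (Pearson's r = 0.85 of log2 CPM, and 0.93 after the group means were removed). Next was *bw* and *Hn* (0.79 and 0.84). The highest value after the group means were removed was that of *bw* and *ry* (0.63 and 0.95). The lowest correlation was that of *ry* and *pr* (-0.79, and -0.80 after the group means were removed). For *se* and *pr*, the 2 genes with the lowest p-values in females, r was 0.66 over all libraries and -0.50 after the group means were removed. These values describe 8 libraries of 4 groups, which share the scaling of each library, and carry no test. With the group means removed, each r rests on 1 difference between 2 replicates in each of the 4 groups.

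Beyond the 10 genes, lists of genes that act in the same pathways were examined, without the test of a list as such. The pteridine and tetrahydrobiopterin list held 12 genes, 4 of them described above. In females 9 of the 12 had a positive and 3 a negative log2 fold change, with a median of 0.15 (all genes -0.03). Of the 12, 1 was called (*se*), where 1.03% of all genes were. The level of *Pu*, which encodes the enzyme that begins the pathway (guanosine triphosphate cyclohydrolase), was 392 and 392 CPM in *Obp56h*-/- females, against 317 and 379 CPM in *CSB* females, and 363 and 362 CPM in *Obp56h*-/- males, against 282 and 345 CPM in *CSB* males. Its groups did not overlap in either sex, with *Obp56h*-/- the higher, an order found in 976 of the 13536 genes tested. Its log2 fold changes of 0.17 in females (SE 0.15, adjusted p = 0.679) and 0.21 in males (SE 0.15, adjusted p = 0.689) did not pass edgeR's quasi-likelihood test. In males 8 of the 12 had a positive log2 fold change, and the median was 0.04 (all genes -0.05). In males 0 were called by edgeR (0.502% of all genes were), with 0 at an unadjusted p under 0.05 (9.15% of all genes). These splits depended on the scaling: with library size alone, which shifted the median of all genes by -0.112 in females and -0.09 in males, 7 of the 12 were positive and 5 negative in females (median 0.05), and 3 were positive and 9 negative in males (median -0.05).

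Tetrahydrobiopterin is the cofactor of the aromatic amino acid hydroxylases and of nitric oxide synthase. Of 4 genes that encode such enzymes, only *ple* was called in a comparison of the genotypes (1.03% of all genes were in females and 1.93% on average), which encodes tyrosine hydroxylase, the enzyme that starts the synthesis of dopamine. It had 202 and 233 CPM in *Obp56h*-/- females, against 143 and 137 CPM in *CSB* females, and 187 and 169 CPM in *Obp56h*-/- males, against 155 and 130 CPM in *CSB* males. The groups did not overlap in either sex, with *Obp56h*-/- the higher, as in 976 of the 13536 genes tested. In females *ple* rose 1.55-fold (log2 fold change 0.63, SE 0.15, adjusted p = 0.0425), and averaged over the sexes it rose 1.39-fold (0.48, SE 0.10, adjusted p = 0.0175, edgeR's quasi-likelihood test), whereas the male difference of 0.32 (SE 0.15, adjusted p = 0.516) did not pass. The call in females was lost without any 1 of 6 libraries, the 4 female libraries (adjusted p = 0.0547 to 0.530) and the *Obp56h*-/- male replicates 1 (0.0545) and 2 (0.0582). It was also lost with library size alone (0.132) and when every library had to reach 10 counts (0.0681). The averaged call was lost without *Obp56h*-/- female replicate 2 (0.104) or male replicate 1 (0.103) and with library size alone (0.0630).

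Pigment granules are made by the same machinery as lysosomes, and of 19 such genes (subunits of the AP-3, HOPS and BLOC complexes and the Rab32 pathway) 18 were tested. In each sex 0 of the 18 were called by edgeR (1.03% of all genes were in females and 0.502% in males). An unadjusted p under 0.05 was found for 1 in females and 2 in males, as it was for 10.7% and 9.15% of all genes. Averaged over the sexes 1 was called (1.93% of all genes were), *Blos2*, a subunit of BLOC-1. It had 7.55 and 8.25 CPM in *Obp56h*-/- females against 4.88 and 4.55 CPM in *CSB* females, and 6.53 and 8.75 CPM in *Obp56h*-/- males against 4.78 and 4.96 CPM in *CSB* males. The groups did not overlap in either sex, with *Obp56h*-/- the higher, an order found in 976 of the 13536 genes tested. *Blos2* rose by 0.70 on the log2 scale (SE 0.16, 95% interval 0.36 to 1.04, adjusted p = 0.0290, edgeR's quasi-likelihood test). The call was lost without any 1 of 5 libraries (both *Obp56h*-/- female, both *CSB* female and *Obp56h*-/- male replicate 2, adjusted p = 0.0560 to 0.186), with library size alone (0.0907), when every library had to reach 10 counts (0.0746) and without both *CSB* replicate 1 libraries (0.0878). Exons of *CG32069* on the opposite strand overlap 85 bp of the 645 bp of *Blos2*.

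**Figure D4:**
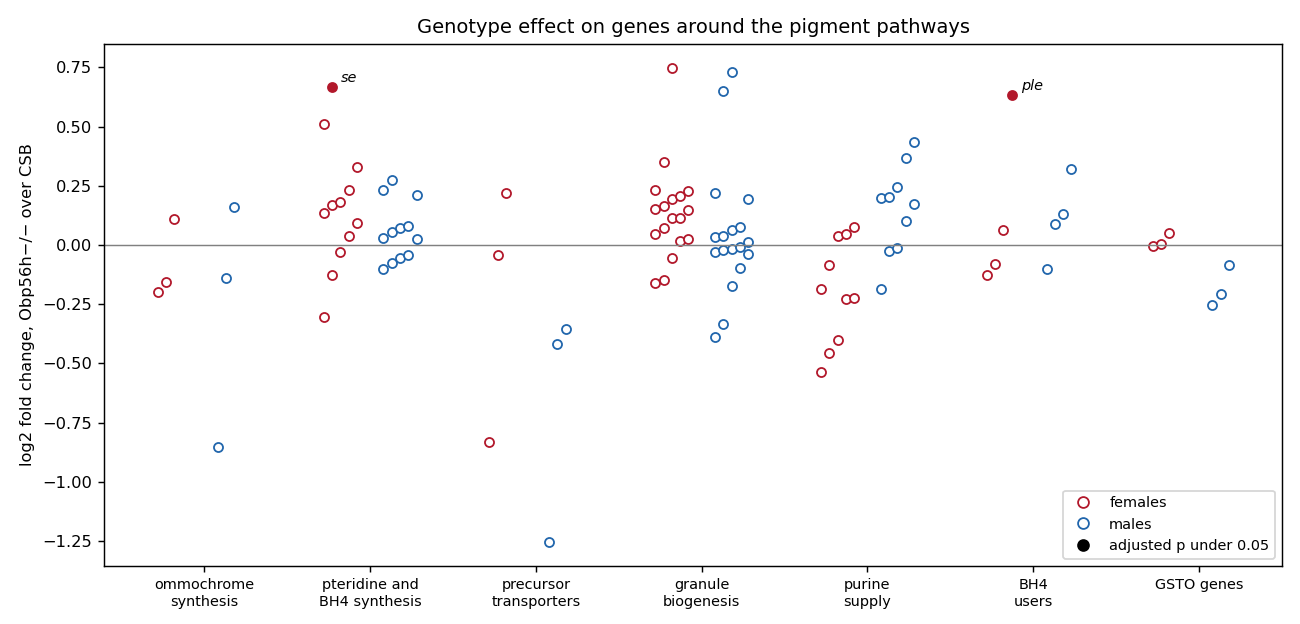
Log2 fold change of *Obp56h*-/- over *CSB* in females and in males for the tested genes of each pathway list, 1 point per gene, without *cn*. In the pteridine list the female points have a median of 0.15 and the male points one of 0.04.

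The pigment cell and lens markers did not move as 1 group. *Crys*, which encodes a secreted protein of the corneal lens, had 9.71 and 8.81 CPM in *Obp56h*-/- females, against 23.4 and 31.1 CPM in *CSB* females, and 13.6 and 11.6 CPM in *Obp56h*-/- males, against 21.3 and 26.2 CPM in *CSB* males. In females it fell by 1.56 on the log2 scale (SE 0.19, adjusted p = 0.000119), and in males it fell by 0.91 (SE 0.19, adjusted p = 0.0264, edgeR's quasi-likelihood test). The male call was lost without *Obp56h*-/- male replicate 2 (adjusted p = 0.384) and when the males were fitted alone (0.143). The retinal pigment cell gene *Pdh*, a retinol dehydrogenase, had 593 and 608 CPM in *Obp56h*-/- females, against 572 and 544 CPM in *CSB* females, and 668 and 729 CPM in *Obp56h*-/- males, against 1280 and 657 CPM in *CSB* males. In females, 2 of 6 genes of the antenna and maxillary palp list (*Obp28a* and *Obp19d*) and 1 of 3 of the head fat body list (*Lsp2*) were also called (1.03% of all genes were). The antennal sum, 1500 to 1520 CPM in *Obp56h*-/- against 744 to 866 CPM in *CSB*, was almost all *Obp19d* (1450 and 1440 CPM against 828 and 707 CPM). Of its genes not called, *Obp83a* had 147 and 1 reads in *Obp56h*-/- female replicates 1 and 2, and *Obp83b* 95 and 0. The fat body sum, 143 to 248 CPM in *Obp56h*-/- against 68.6 to 86.9 CPM in *CSB*, was mostly *Lsp2* (207 and 107 CPM against 36.8 and 50 CPM). Among all genes tested, 19.4% were higher and 21.9% lower without overlap in *Obp56h*-/- females, and 16.6% and 24.3% in males. Summed levels of the Malpighian tubule list were lower without overlap, at 15.6 to 16.1 CPM in *Obp56h*-/- females against 16.9 to 21.5 CPM in *CSB* females, and 14 to 17.1 CPM against 18.4 to 21.5 CPM in males. Those of the midgut list were too (4.37 to 4.76 CPM against 5.17 to 12.5 CPM in females, 3.57 to 4.01 CPM against 4.96 to 6.92 CPM in males). Other lists had higher summed levels in *Obp56h*-/- without overlap. Those of 5 neuronal genes were 6840 to 7990 CPM in *Obp56h*-/- females against 5600 to 6760 CPM in *CSB* females, and 8390 to 8440 CPM in *Obp56h*-/- males against 6650 to 6760 CPM in *CSB* males. Those of the testis list were 587 to 716 CPM in *Obp56h*-/- females against 441 to 513 CPM in *CSB* females, and 787 to 814 CPM in *Obp56h*-/- males against 517 to 521 CPM in *CSB* males. Almost all of this sum was *bol*, at 582 and 711 CPM in *Obp56h*-/- females against 430 and 506 CPM in *CSB* females. Of the testis genes with few reads, *dj* had 2 to 4 reads in the *Obp56h*-/- libraries against 9 to 28 in the *CSB* libraries. *ProtA* had 1 or 2 reads against 3 to 8. Both orders rest on values at or near the floor of 3 reads. Other genes of the list, such as *Mst84Db*, *Mst87F* and *twe*, overlapped between the genotypes over the 8 libraries. The fat body list had 109 to 158 CPM in *Obp56h*-/- males against 42.7 to 91.5 CPM in *CSB* males, mostly *Lsp2* (98.9 and 149 CPM against 74.3 and 27.7 CPM). Its other genes were lower in *Obp56h*-/- males: *to* (9.98 and 8.57 CPM against 16.6 and 14.9 CPM) and *Fbp1* (0 and 1 read against 10 and 3 reads). The part of these shifts in the levels of *se*, *pr* and *ple* was not tested.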

How the data were processed

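RNA from heads was depleted of ribosomal RNA and sequenced as paired ends. Per the study's methods, the authors trimmed and filtered reads with AfterQC, screened for ribosomal RNA with bbduk, used GSNAP for alignment to release 6 of the genome, and assigned alignments that were unique to genes by Subread. The deposited values are these raw counts, beside a length for each gene. Tool versions and the strand setting are not given in the sources used here. All 8 libraries were used, grouped by their labels, and 0 columns of values were left out.

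Counts were filtered with filterByExpr (smallest count 10), scaled by TMM and fitted in edgeR 4.0.16 (R 4.3.3) with 1 mean for each of the 4 groups. The quasi-likelihood test was used for 7 contrasts, and p-values were adjusted over 13536 genes. The test was tried on simulated counts with known changes. Standard errors are the log2 fold change over the root of the test statistic. Floors of 3 reads cover counting error only. Of the 17490 genes, 17288 were matched by identifier to Ensembl's BDGP6 annotation, and of 59 entries in the pathway lists 56 were found in the table. The 10 genes and the pathway lists were chosen with earlier results of these data known. Named beside the 10 genes were those of the lists that were called in any contrast and the gene of each list with the largest averaged genotype difference. *Pu*, *GstO2*, *GstO3*, *CG6765*, *ZC3H3*, *Pus7*, *CapaR*, *Pdh* and the other marker genes named that were not called were added after their values were seen.

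Alternatives were a likelihood ratio test, DESeq2 1.42.0, RLE factors, library size alone, GeTMM (counts per kb) tested by likelihood ratio, no filter, at least 10 counts in every library, groups fitted on their own, the replicate number as a block and each library left out. The fit without both *CSB* replicate 1 libraries was chosen after the data were seen. Plots were drawn with matplotlib 3.10.9.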

Additional observations from a re-analysis of the deposited data

Results flagged for a closer look

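The difference of *st* between *Obp56h*-/- and *CSB* had opposite signs in the sexes. Its log2 fold change in males minus that in females was -0.57 (unadjusted p = 0.0280, adjusted p = 1 by edgeR's quasi-likelihood test), and both *Obp56h*-/- libraries lay below both *CSB* libraries in males and above them in females. It was not called in any of 17 alternative fits, in which the difference was between -0.69 and -0.44.

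The groups of *Gart* also did not overlap in either sex, with *Obp56h*-/- the higher in males (16.6% of all genes tested) and the lower in females (21.9%). It encodes an enzyme of purine synthesis, the pathway that supplies the guanosine triphosphate from which pteridines are made. *Gart* had 109 and 118 CPM in *Obp56h*-/- males, against 70.4 and 97.7 CPM in *CSB* males, and 77.2 and 60.4 CPM in *Obp56h*-/- females, against 86.8 and 113 CPM in *CSB* females. For *Gart* the log2 fold change in males minus that in females was 0.97 (unadjusted p = 0.00128, adjusted p = 0.432).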

How the results depend on the processing

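The number of the 10 genes called was recomputed under each alternative. In females, where 1 gene was called, it was 2 (*se* and *pr*) with a likelihood ratio test, DESeq2, no filter and the females fitted alone, 0 with library size alone, and 0 to 2 when a library was left out. Averaged over the sexes, where 1 was called, it was 2 with DESeq2 and without both *CSB* replicate 1 libraries, 0 with library size alone, and 0 to 2 when a library was left out. In males, in the difference between the sexes and between the sexes of *CSB*, it was 0 in every alternative. Between the sexes of *Obp56h*-/- it was 1 with DESeq2 (*pr*) and with no filter (*ry*), 2 with these groups fitted alone and without both *CSB* replicate 1 libraries, and 0 to 2 when a library was left out. Averaged over genotypes it was 1 with no filter (*ry*), 2 without both *CSB* replicate 1 libraries, and 0 to 2 when a library was left out. The fitted averaged log2 fold change of *cn*, which rests on too few reads to be read as a fold, was between -2.35 and 0.88 when a library was left out, and turned positive (0.88) without *CSB* male replicate 1, which held 10 of its reads.

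Over 46 genes and contrasts and 798 alternative values, 724 stayed on their side of the threshold, of which 692 kept their sign, 13 changed it and 19 were 0 at 2 decimals in either fit. A further 49 lost a call, 24 gained one, and 1 was counted as reversed because it changed sign with a value at least 1 SE from 0. Over all genes tested, 140 were called in females and 66 to 529 under the alternatives, 68 and 28 to 769 in males, 261 and 155 to 1649 on average, and 5 and 1 to 214 for the difference between the sexes. Between males and females they were 432 and 196 to 949 in *Obp56h*-/-, 393 and 148 to 957 in *CSB*, and 913 and 611 to 1505 on average. The replicate number as a block left 1 of the 10 genes called in females (*se*) and 1 on average and 0 in males, with 222 genes called in all in females. Deviations of same-numbered pools correlated at r = 0.464 between *CSB* females and males, and at -0.095 to 0.071 between the other pairs of groups. The labels do not say whether same-numbered pools share a batch, and with 2 pools a group these values cannot settle it. Requiring 10 counts in every library left *w* and *cn* untested. With 2 pools a group, and 0 to 27 reads on *w* and *cn*, the SE of their log2 fold changes was 0.88 to 2.05 within a sex.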

Other observations

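Purines are the source of the pteridine pigments, and of 11 genes of purine synthesis and breakdown 10 were tested. The median log2 fold change of *Obp56h*-/- over *CSB* was -0.20 in females (3 positive, 7 negative) and 0.19 in males (7 positive, 3 negative), beside -0.03 and -0.05 for all genes tested. With library size alone the medians were -0.32 in females (0 positive, 10 negative) and 0.10 in males (7 positive, 3 negative). In either sex 0 of 10 were called by edgeR's quasi-likelihood test (1.03% of all genes were in females and 0.502% in males). In each sex 2 of the 10 had an unadjusted p under 0.05, as did 10.7% of all genes in females and 9.15% in males. The largest averaged difference was that of *Paics*, which encodes a purine synthesis enzyme, at 0.21 (adjusted p = 0.349).

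Between males and females, 0 of these 10 genes were called within *CSB* by edgeR's quasi-likelihood test (2.9% of all genes were). By the same test 2 were called within *Obp56h*-/- (3.19% of all genes were) and 3 on average (6.74%). Within *CSB* 3 of the 10 had an unadjusted p under 0.05, as did 10.3% of all genes. *Pfas*, a purine synthesis enzyme, had 83.2 and 79.4 CPM in *Obp56h*-/- males against 49.4 and 34.4 CPM in *Obp56h*-/- females, and 56.5 and 84.8 CPM in *CSB* males against 48.9 and 65.6 CPM in *CSB* females. It was higher in males by 0.95 on the log2 scale within *Obp56h*-/- (SE 0.20, adjusted p = 0.0111, edgeR's quasi-likelihood test) and by 0.63 on average (adjusted p = 0.0102). The first call was lost without *Obp56h*-/- female replicate 2 (adjusted p = 0.179) and the second without *CSB* female replicate 1 (0.0670). *Gart* was higher in *Obp56h*-/- males than in *Obp56h*-/- females by 0.72 (SE 0.18, adjusted p = 0.0319), a call lost without *Obp56h*-/- female replicate 2 (0.443) or male replicate 1 (0.0779) or 2 (0.141). Averaged over the genotypes, the purine genes *ras* and *Adss* and the pteridine gene *Sptr* were lower in males: *ras*, which encodes inosine monophosphate dehydrogenase (-0.41, adjusted p = 0.0226), *Adss*, which encodes adenylosuccinate synthase (-0.50, adjusted p = 0.0367), and *Sptr*, which encodes sepiapterin reductase (-0.50, adjusted p = 0.0134). All 3 calls were lost without *Obp56h*-/- female replicate 1 (adjusted p = 0.192 for *ras*, 0.156 for *Adss* and 0.117 for *Sptr*), *Obp56h*-/- male replicate 1 (0.222, 0.0833 and 0.118) or male replicate 2 (0.104, 0.116 and 0.0737). *Sptr* was also lost without *CSB* female replicate 1 (0.0634), and *Adss* without *CSB* female replicate 2 (0.129), with library size alone (0.0712) and with counts per kb and a likelihood ratio test together (0.0781). *Sptr* had 12.7 and 14.0 CPM in *Obp56h*-/- males against 20.4 and 19.2 CPM in *Obp56h*-/- females, and 13.2 and 12.1 CPM in *CSB* males against 17.6 and 16.3 CPM in *CSB* females, without overlap between the sexes in either genotype.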
